A study of Mus musculus with 12 samples.

Results

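Eukaryotic translation initiation factors are the proteins that bring the small ribosomal subunit, the initiator tRNA and an mRNA together at a start codon. Their genes were taken by name, as every gene of the deposited tables whose symbol begins with Eif1 to Eif6, leaving out the eIF2 kinases (Eif2ak) and processed pseudogenes. This gave 50 of 23845 genes, and no measured value entered the choice. The genes were measured by poly(A) RNA-seq in microglia, the resident macrophages of the brain, isolated on Percoll gradients from C57BL6/J mice of 3 to 4 months. There were 4 groups of 3 libraries with 1 animal per library. CPEB1-KO-LPS mice were labelled as knockouts of CPEB1 and had been injected with LPS (lipopolysaccharide, from the outer membrane of bacteria) 24 h before collection. CPEB1-KO mice carried the same genotype label without LPS. WT-LPS mice were wild type with the same LPS treatment, and WT mice were wild type without it. The sources used here do not give the dose, the animals' sex, the knockout allele or what mice without LPS received.

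Initiation on most mRNAs starts at the 5′ cap. The cap-binding protein eIF4E, the scaffold eIF4G and the RNA helicase eIF4A form the eIF4F complex, and the eIF4E-binding proteins keep eIF4E away from eIF4G until the kinase mTOR phosphorylates them. The complex eIF2 carries the initiator tRNA, eIF2B reloads eIF2 with GTP, and stress kinases slow this exchange by phosphorylating the alpha subunit of eIF2. The multi-subunit eIF3 bridges the small ribosomal subunit and eIF4G, while eIF1, eIF1A and eIF5 control start-codon choice and eIF5B and eIF6 act on the joining of the large subunit. CPEB1 binds mRNAs that carry a cytoplasmic polyadenylation element and acts on their poly(A) tails and translation. LPS drives macrophages into an inflammatory state in which both transcription and translation are known to be regulated.

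Total expected counts were 9.25 to 13.5 M (1e+06 counts) in the CPEB1-KO-LPS libraries, 9.47 to 13.4 M in CPEB1-KO, 10.5 to 12.9 M in WT-LPS and 5.02 to 9.49 M in WT. Cpeb1, the targeted gene, averaged 33.1 ± 8.37 TPM (transcripts per 1e+06 transcripts; SD, n = 3) in CPEB1-KO-LPS, 21.8 ± 4.42 TPM in CPEB1-KO, 36.4 ± 10.98 TPM in WT-LPS and 26.2 ± 14.9 TPM in WT. The libraries labelled knockout therefore still held Cpeb1 reads at levels that overlapped those labelled wild type, and the genotype rests on the labels. A count over the whole gene does not show whether part of it was deleted. Neuron markers (12 genes, mean log2(TPM + 1), none at 0 in all libraries) ranged over 7.48 to 8.26 in CPEB1-KO-LPS, 7.97 to 8.44 in CPEB1-KO, 7.37 to 8.62 in WT-LPS and 6.41 to 7.88 in WT. WT-LPS replicate 1 and WT replicate 1 had the highest neuron level of their groups. Microglia markers (12 genes, none at 0 in all libraries) ranged over 5.38 to 7.33 in CPEB1-KO-LPS against 7.61 to 8.27 in CPEB1-KO, and over 5.78 to 7.65 in WT-LPS against 8.63 to 8.89 in WT. Markers of microglia and of neurons were thus both present in every library. In such samples fewer cells of a type and less RNA per cell cannot be told apart.

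Promoter sequence was available for 39 of the 50 genes (RefSeq, GRCm38.p6; the 250 bases before the annotated start, both strands). A gene was counted if any of its annotated starts had a match, so genes with several starts, such as Eif5a, had more windows. The E-box CACGTG, the core recognised by MYC and its relatives, was found in 9 of 39 genes (23.1%), against 9.46% of genes tested and 6.86% of all genes with promoter sequence. The ETS core CCGGAAG was found in 12 of 39 (30.8%), against 13.7% of genes tested and 7.83% of all. No promoter of these genes held the 10-base NF-kappaB pattern searched, which was found in 1.84% of genes tested, or TGATGNAAT, an ATF4 pattern found in 0.462%. An NRF1 pattern, also searched, was found in 15.4% of the 39 genes, against 8.18% of genes tested. Of the 39 genes, 11 passed as higher in the test of WT-LPS against WT given below. Among these 11, the E-box was found in 2, the ETS core in 3 and the NRF1 pattern in 0. The E-box and the ETS core were thus no more common among them than among all 39. A link between matches and the response to LPS was not tested. These matches are letters in a window and say nothing of binding. The stretches below belong to genes that were higher after LPS in wild type and carry such a match; the capitals mark the E-box in Eif4a1 (chr11:69672424-69672623, minus strand, 189 bases before the start) and Eif4g1 (chr16:20672607-20672726, plus strand, 54 bases before), and the ETS core, read on the other strand as CTTCCGG, in Eif3c (chr7:126566367-126566486, minus strand, 68 and 34 bases before) and Eif3l (chr15:79075103-79075222, plus strand, 35 bases before).
Eif4a1: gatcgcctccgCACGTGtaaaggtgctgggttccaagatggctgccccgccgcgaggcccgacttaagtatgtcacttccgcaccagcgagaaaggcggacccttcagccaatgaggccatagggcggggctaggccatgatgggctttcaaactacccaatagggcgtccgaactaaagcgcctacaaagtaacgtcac
Eif4g1: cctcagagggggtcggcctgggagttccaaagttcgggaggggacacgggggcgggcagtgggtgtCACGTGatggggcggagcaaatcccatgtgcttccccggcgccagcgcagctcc
Eif3c: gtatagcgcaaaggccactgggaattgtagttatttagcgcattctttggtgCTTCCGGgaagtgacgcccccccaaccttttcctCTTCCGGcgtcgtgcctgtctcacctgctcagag
Eif3l: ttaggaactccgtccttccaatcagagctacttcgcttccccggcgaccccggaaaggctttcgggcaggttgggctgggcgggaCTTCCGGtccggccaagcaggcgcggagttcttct

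The 50 genes spanned a wide range of levels. Eif1, whose product scans for the start codon, was the most abundant, with a mean of 825 TPM over all libraries. It was followed by Eif5a, which promotes peptide bond formation and is the carrier of hypusine (626 TPM), the helicase genes Eif4a2 (472 TPM) and Eif4a1 (412 TPM), Eif1b (294 TPM), Eif3k (269 TPM), the eIF4A cofactor gene Eif4h (251 TPM), Eif3h (239 TPM), Eif3f (238 TPM) and Eif3g (189 TPM). Neighbours in this order, such as Eif4a2 and Eif4a1 or Eif3h and Eif3f, had overlapping ranges over the 12 libraries. At the low end stood Eif4e3 (12.5 TPM) and Eif4ebp2 (14.1 TPM). Eif4e1b, which is known as a germline form of the cap-binding protein, was listed at 0 in all 12 libraries and was the only one of the 50 that did not enter the tests.

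The initiation factors summed to 6977, 7170 and 7147 TPM in the CPEB1-KO-LPS libraries and 5509, 5774 and 5882 TPM in the CPEB1-KO libraries. The sums were 7644, 7816 and 7297 TPM in WT-LPS and 5500, 4615 and 4688 TPM in WT. In both genotypes every library after LPS stood above every library without it. Of the expected counts, initiation factors made up 0.734 to 0.870% in CPEB1-KO-LPS and 0.645 to 0.659% in CPEB1-KO. These count shares were 0.783 to 0.909% in WT-LPS and 0.586 to 0.676% in WT. The 13 genes of eIF3 alone summed to 2117, 2187 and 2010 TPM in WT-LPS and 1602, 1564 and 1514 TPM in WT. TPM are shares of a library, so these sums describe the part of the measured mRNA that encodes initiation factors. Marker levels of other cells moved between the same groups. Of 12 marker lists, 9 did not overlap between WT-LPS and WT. Monocyte markers were higher, at a mean log2(TPM + 1) of 4.16 to 4.87 in WT-LPS against 2.33 to 2.83 in WT, as were endothelial and mural markers, at 1.99 to 3.13 in WT-LPS against 1.45 to 1.71 in WT. Microglia, oligodendrocyte, choroid plexus, border macrophage, T and NK cell, B cell and erythroid markers were lower, the erythroid ones at 8.88 to 9.69 in WT-LPS against 11.5 to 12.2 in WT. In CPEB1-KO-LPS against CPEB1-KO, 3 of the 12 did not overlap, those of microglia, oligodendrocytes and choroid plexus, all lower. No marker of these lists was at 0 in all libraries. The part of these markers in the sums was not tested.

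The effect of LPS was read first in wild-type mice. Of the 49 genes tested, 13 rose and 1 fell in WT-LPS against WT (false discovery rate, FDR, below 0.05 over all 15295 genes by edgeR's quasi-likelihood test). This is 28.6% of the 49, against 27.4% of all genes tested, so the share called was near the background. By direction, 26.5% of the 49 rose, against 12.4% of all genes, and 2.04% fell, against 14.9%. The median log2 fold change was 0.37 for the 49 and -0.03 for all genes tested, with 34 of the 49 above 0. On the TPM scale, where each library is scaled to its own total, the median of all genes moved to 0.28, 75.7% of all calls were higher in place of 45.4%, and 30 initiation factors rose and 1 fell by limma on log2(TPM + 1). In that fit 3380 of all 15295 genes rose and 1087 fell.

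Among the genes of the scanning ribosome, Eif1a had 51.0, 47.0 and 44.4 TPM in WT-LPS, against 23.4, 14.5 and 13.9 TPM in WT. It encodes a form of eIF1A, which keeps the small subunit open for scanning. The groups did not overlap, and its log2 fold change was 1.12 ± 0.20 (SE; FDR 0.00211), the smallest FDR of the 49. Overlap is read on TPM here and below. The share of all genes without overlap was not counted, so a lack of overlap is a description only. Eif1ad, which encodes a protein with an eIF1A-like domain, had 46.4, 37.5 and 35.0 TPM in WT-LPS, against 24.6, 18.4 and 14.4 TPM in WT, a log2 fold change of 0.70 ± 0.22 (FDR 0.0314). Eif1, Eif1b and Eif1ax did not pass; Eif1 had 1014, 774 and 853 TPM in WT-LPS, against 847, 682 and 659 TPM in WT, and the groups overlapped. Eif5, whose product makes eIF2 hydrolyse its GTP at the start codon, had 196, 184 and 226 TPM in WT-LPS, against 91.2, 90.8 and 74.5 TPM in WT, and its log2 fold change was 0.86 ± 0.21 (FDR 0.0102).

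Of the 6 genes of eIF2 and of initiator tRNA delivery, 3 rose (50%, against 12.4% of all genes that rose), a share of few genes. Eif2s2, the beta subunit, had 96.4, 94.1 and 83.8 TPM in WT-LPS, against 53.9, 40.8 and 34.5 TPM in WT (log2 fold change 0.74 ± 0.21, FDR 0.0181). Eif2s3x, the X-linked gamma subunit, had 82.4, 80.8 and 81.5 TPM in WT-LPS, against 39.9, 41.5 and 30.8 TPM in WT (0.75 ± 0.22, FDR 0.0239). Its Y-linked counterpart Eif2s3y had 52.2, 73.6 and 69.1 TPM in WT-LPS, against 72.7, 32.4 and 105.3 TPM in WT, and the groups overlapped (-0.41 ± 0.31). Eif2a, an initiator tRNA carrier distinct from eIF2, rose by 0.50 ± 0.17 on the log2 scale (FDR 0.0474); it ranks last of the 14 called and is named after its values were seen. Eif2s1, the alpha subunit that stress kinases phosphorylate, had 26.5, 46.7 and 40.7 TPM in WT-LPS, against 20.5, 16.7 and 18.6 TPM in WT, did not overlap and did not pass (0.69 ± 0.25, FDR 0.0576). Of the 5 eIF2B genes, 1 rose (20% of them): Eif2b2, the beta subunit, with 65.4, 59.4 and 65.8 TPM in WT-LPS, against 28.7, 24.4 and 37.2 TPM in WT (0.73 ± 0.19, FDR 0.0123). The catalytic subunit Eif2b5 had 36.9, 39.8 and 33.5 TPM in WT-LPS, against 41.5, 26.3 and 34.9 TPM in WT, a log2 fold change of -0.22 ± 0.17 that did not pass.

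The first bases of the X- and Y-linked eIF2 gamma genes are shown because Eif2s3x passed and Eif2s3y did not, a difference that was itself not tested, and because mRNAs that begin with a C and a pyrimidine run are those whose translation mTOR is known to regulate. Each stretch covers 20 bases before to 25 bases after the RefSeq start on GRCm38.p6, Eif2s3x on the minus strand of chrX:94212627-94212671 and Eif2s3y on the plus strand of chrY:1010575-1010619; the capitals mark runs of at least 6 pyrimidines. A C followed by 4 pyrimidines stands at the RefSeq start of Eif2s3x, and the run of Eif2s3y begins 1 base after its start. That pattern was found in 2 of the 39 genes with promoter sequence (5.13%), against 3.02% of genes tested. The other was Eif3f, which did not pass in WT-LPS against WT. GENCODE M21 places the 5′ end of the Eif2s3x gene further upstream, at chrX:94212862.
Eif2s3x: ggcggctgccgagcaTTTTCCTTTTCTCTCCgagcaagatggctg
Eif2s3y: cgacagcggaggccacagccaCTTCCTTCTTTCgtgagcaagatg

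Of the 13 eIF3 genes, 3 rose and none fell, so that 23.1% were called, near the 27.4% of all genes called in either direction; 12.4% of all genes rose. Eif3c, a core scaffold subunit, had 156, 168 and 147 TPM in WT-LPS, against 88.6, 57.0 and 50.8 TPM in WT, and its log2 fold change was 0.93 ± 0.22 (FDR 0.0091). Eif3b, which holds the core together through its RNA-binding and propeller domains, had 93.5, 141 and 138 TPM in WT-LPS, against 64.9, 50.3 and 57.0 TPM in WT (0.77 ± 0.24, FDR 0.031). Eif3l had 107, 139 and 105 TPM in WT-LPS, against 65.2, 52.4 and 61.5 TPM in WT (0.64 ± 0.19, FDR 0.0279). These 3 subunits did not overlap between the groups in TPM, but neither did Eif3f, which did not pass. The other 10 ranged from -0.50 (Eif3k) to 0.53 (Eif3a) on the log2 scale, on both sides of 0. The abundant subunit genes Eif3k, Eif3h, Eif3f and Eif3g were among those that did not pass; Eif3f had 260, 257 and 262 TPM in WT-LPS, against 215, 233 and 188 TPM in WT, and its log2 fold change on the count scale was -0.08 ± 0.22.

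In the cap-binding complex, the helicase gene Eif4a1 had 459, 865 and 659 TPM in WT-LPS, against 237, 213 and 259 TPM in WT. It had the largest positive fold change of the 49 (log2 1.15 ± 0.29, FDR 0.0119). The scaffold gene Eif4g1 had 108, 149 and 151 TPM in WT-LPS, against 73.6, 45.3 and 54.4 TPM in WT (0.91 ± 0.22, FDR 0.00824). Neither overlapped between the groups in TPM, which was also so for Eif4g2, Eif4e and Eif4e2, given next, which did not pass. The other scaffolds did not pass: Eif4g2, which lacks the eIF4E-binding part, had 145, 187 and 198 TPM in WT-LPS, against 120.1, 133 and 98.9 TPM in WT (0.21 ± 0.28), and Eif4g3 had 72.6, 65.1 and 88.3 TPM in WT-LPS, against 60.6, 52.7 and 106 TPM in WT (-0.30 ± 0.24). The cap-binding genes themselves did not pass. Eif4e had 75.1, 67.5 and 61.0 TPM in WT-LPS, against 57.9, 45.8 and 37.1 TPM in WT, Eif4e2, a repressive cap-binding protein, had 39.4, 46.5 and 42.0 TPM in WT-LPS, against 27.3, 24.6 and 31.0 TPM in WT, and Eif4e3 had 9.38, 13.02 and 17.3 TPM in WT-LPS, against 11.7, 12.1 and 12.2 TPM in WT.

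The 4 genes of eIF4E-binding proteins went different ways. Eif4ebp3 was the only initiation factor gene that fell, with 14.0, 14.8 and 18.5 TPM in WT-LPS, against 22.2, 61.1 and 123 TPM in WT (log2 fold change -2.50 ± 0.52, FDR 0.00408). The groups did not overlap, and the WT libraries ranged widely, with replicate 1 nearest to the LPS libraries. Eif4ebp1, the best known of these mTOR targets, had 19.5, 60.5 and 40.0 TPM in WT-LPS, against 17.7, 16.0 and 10.7 TPM in WT, and did not pass (1.10 ± 0.44, FDR 0.0791). Eif4ebp2, the main form in the brain, had 14.0, 23.9 and 22.4 TPM in WT-LPS, against 8.58, 13.9 and 5.22 TPM in WT, and Eif4enif1, a transporter of eIF4E into the nucleus, had 28.5, 24.6 and 31.1 TPM in WT-LPS, against 19.9, 15.8 and 25.5 TPM in WT; neither passed. Of the 50-base words of Eif4ebp3 transcripts, 65.5% also occur in AC115631.1, an overlapping gene model, so its counts depend on how the authors' counting divided reads between them. No 50-base word was shared between Eif4a1 and Eif4a2 or between Eif2s3x and Eif2s3y, but 28.4% of Eif4a1 words and 34.6% of Eif2s3x words also occur in other genes, among them pseudogenes. Eif6, which keeps the large subunit from joining too early, had 127, 149 and 124 TPM in WT-LPS, against 79.0, 63.4 and 46.0 TPM in WT (0.74 ± 0.24, FDR 0.0358).

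**Figure D1:**
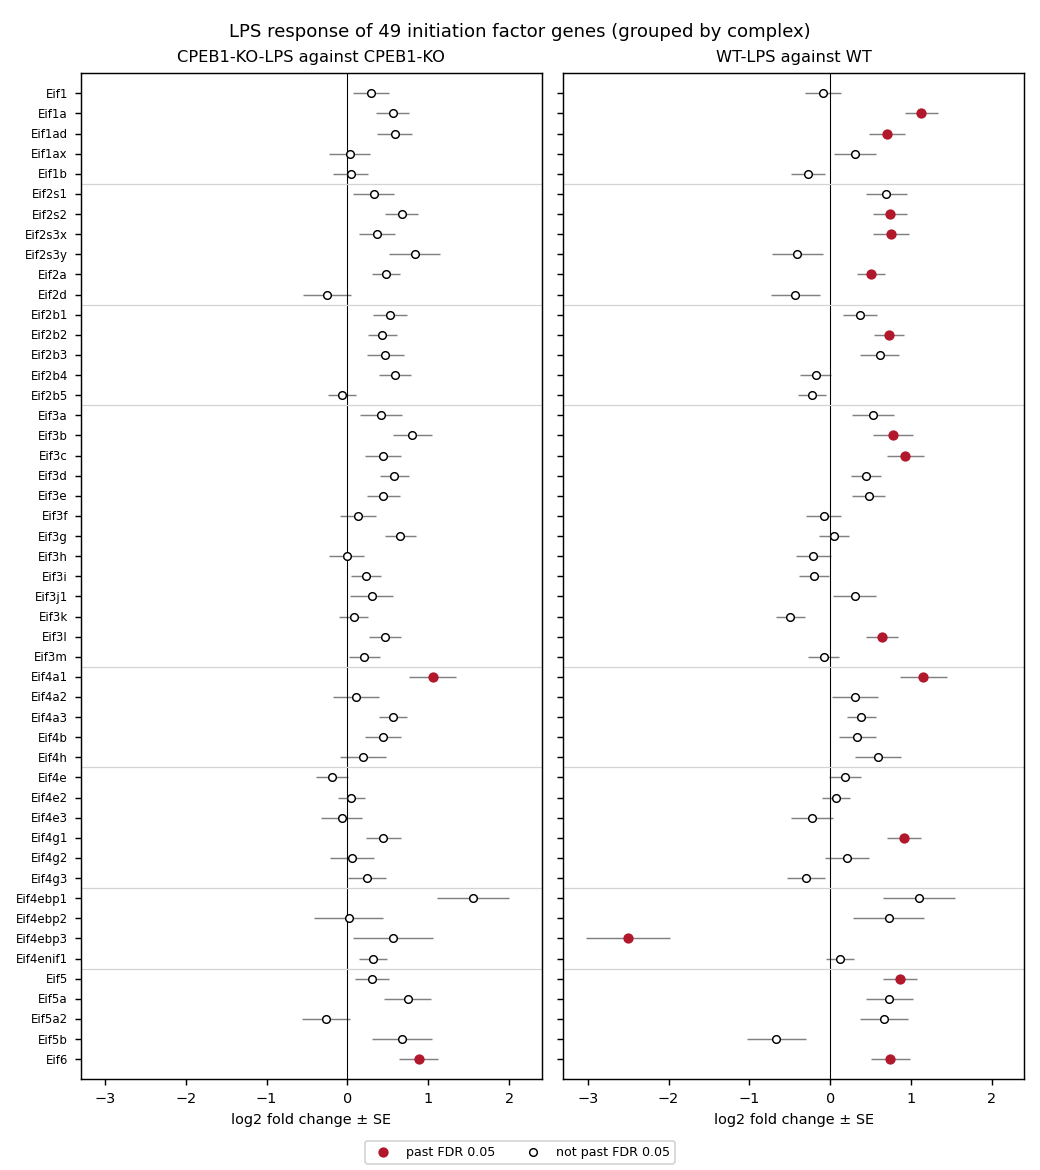
Log2 fold change (x axis, ± SE) of each of the 49 tested genes (rows, grouped by complex), for CPEB1-KO-LPS against CPEB1-KO on the left and WT-LPS against WT on the right. Filled points passed FDR 0.05, 2 on the left and 14 on the right, where Eif4ebp3 is the only filled point below 0.

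The calls for Eif1a, Eif4ebp3, Eif4g1, Eif3c, Eif5 and Eif2b2 held when any 1 of the 12 libraries was left out. The other 8 did not: without WT-LPS replicate 2 these 6 alone were called, and Eif4a1 had FDR 0.0564. Without WT replicate 3 there were 7 calls. Without WT replicate 1 the calls of Eif2s3x, Eif3l, Eif3b and Eif2a were lost. Eif3b was also lost without WT replicate 2 or WT-LPS replicate 3, Eif1ad without WT-LPS replicate 1, Eif6 without CPEB1-KO replicate 2 or 3, and Eif2a without WT-LPS replicate 3, CPEB1-KO-LPS replicate 2 or any 1 CPEB1-KO library. The highest FDR among these 8 genes was 0.136, for Eif2a. Leaving out WT-LPS replicate 1 and WT replicate 1, the libraries with the highest neuron marker level of their own groups, gave 13 calls. With the replicate number as a block in all 4 groups, 11 of the 14 calls held and those of Eif1ad (FDR 0.0503), Eif6 (FDR 0.0572) and Eif2a (FDR 0.0717) were lost. With the block in the wild-type libraries only, chosen after seeing the data, all 14 held (Eif1ad 0.00944, Eif6 0.0133, Eif2a 0.0214) and 5 more passed, Eif2s1, Eif3e, Eif4h and Eif5a2 as higher and Eif3k as lower. With the neuron marker level as a covariate there were 18 calls, 17 higher and 1 lower. Over all genes, 4185 were called in the main fit and 4330 without both of those libraries. The block in all groups gave 3720, the block in wild type only 5270 and the covariate 4532.

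**Figure D2:**
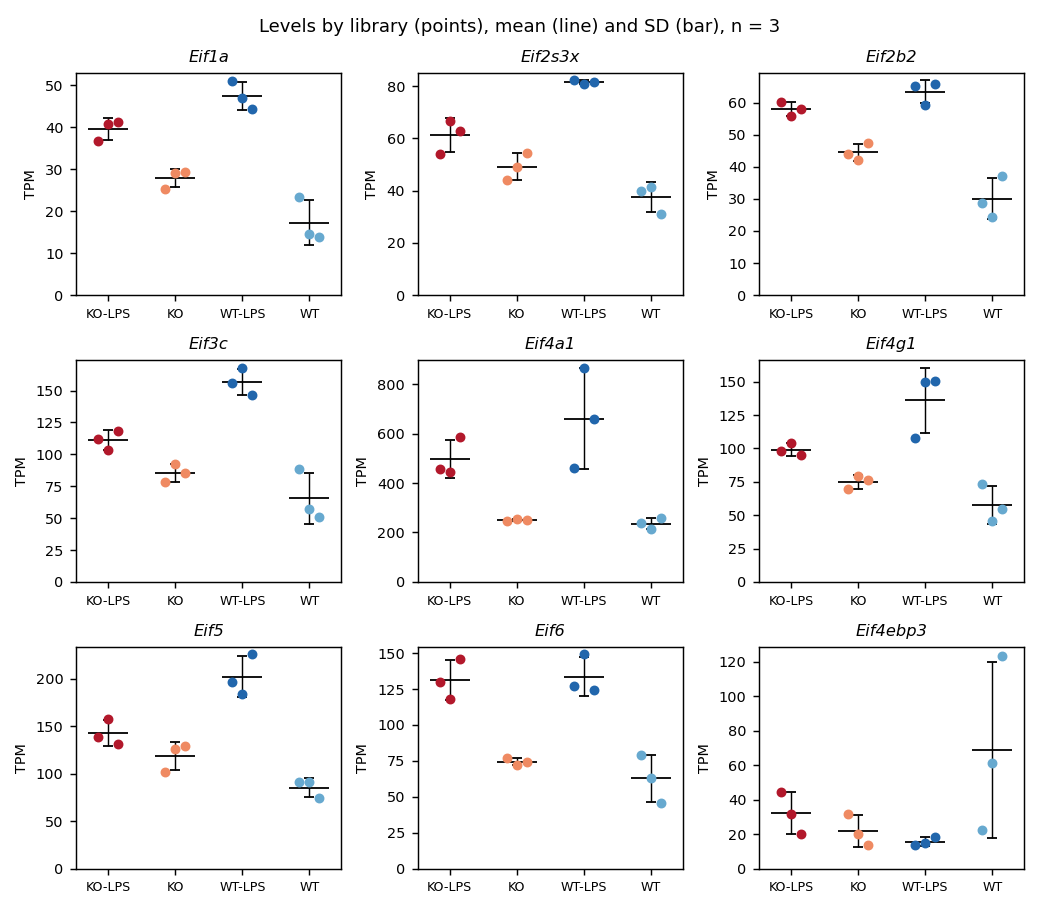
TPM (y axis) of 9 initiation factor genes in each library, as points by group (x axis), with the group mean (line) and SD (bar), n = 3. Eif1a, Eif3c and Eif5 stand higher in every WT-LPS than in every WT library, and Eif4ebp3 ranges from 22.2 to 123 TPM in WT.

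The same treatment was then read in mice labelled CPEB1-KO. In CPEB1-KO-LPS against CPEB1-KO, 2 of the 49 genes rose and none fell. That is 4.08% of the 49, against 6.22% of all genes tested, of which 4.1% rose and 2.12% fell, so the share that rose was at the background. The median log2 fold change was 0.41, against -0.00024 for all genes tested, and 43 of the 49 were above 0. Eif6 had 130, 118 and 146 TPM in CPEB1-KO-LPS, against 77.3, 72.1 and 74.4 TPM in CPEB1-KO (log2 0.88 ± 0.24, FDR 0.046). Eif4a1 had 459, 446 and 586 TPM in CPEB1-KO-LPS, against 248, 255 and 252 TPM in CPEB1-KO (1.05 ± 0.29, FDR 0.0498). Neither overlapped between the groups, and both had also risen in wild type. Both calls lay close to the threshold. The Eif6 call was lost without WT replicate 1, WT-LPS replicate 1 or 3, or any 1 of the 6 knockout-labelled libraries (FDR up to 0.185). The Eif4a1 call was lost without any 1 WT library, WT-LPS replicate 3, or any 1 of those 6 (FDR up to 0.18).

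Eif4ebp1 had the largest positive fold change of this comparison, with 26.0, 22.4 and 39.9 TPM in CPEB1-KO-LPS, against 12.5, 9.68 and 9.99 TPM in CPEB1-KO. The groups did not overlap, but it missed the threshold (1.55 ± 0.44, FDR 0.0562). Eif4ebp3 had 44.5, 31.8 and 20.4 TPM in CPEB1-KO-LPS, against 31.8, 19.9 and 13.9 TPM in CPEB1-KO, and the groups overlapped (0.56 ± 0.49). Eif1a, the first of the wild-type calls, had 36.7, 40.9 and 41.3 TPM in CPEB1-KO-LPS, against 25.4, 29.2 and 29.3 TPM in CPEB1-KO; the groups did not overlap and the change did not pass (0.56 ± 0.20, FDR 0.125). Eif4g1 (98.0, 104 and 95.3 TPM in CPEB1-KO-LPS, against 69.4, 79.1 and 76.5 TPM in CPEB1-KO) and Eif3c (112, 103 and 119 TPM in CPEB1-KO-LPS, against 78.3, 92.7 and 85.6 TPM in CPEB1-KO) likewise did not overlap and did not pass. A call in wild type and none in knockout-labelled mice does not show that the responses differ, which the interaction tests.

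The helicase paralogs Eif4a1 and Eif4a2 were distributed differently over the libraries. Eif4a2 had 610, 683 and 382 TPM in CPEB1-KO-LPS and 468, 559 and 568 TPM in CPEB1-KO, and 715, 356 and 371 TPM in WT-LPS and 459.9, 229 and 261 TPM in WT. It was highest in each wild-type group in replicate 1, which also had the most neuron marker RNA. Its log2 fold change in WT-LPS against WT was 0.31 ± 0.29 and became -0.08 with the neuron marker level as a covariate; neither passed. Eif4a1 did not follow that order: WT-LPS replicate 1, with the most neuron RNA of all, had the lowest Eif4a1 of its group. Eif4a1 made up 42.9%, 39.5% and 60.6% of the summed TPM of the pair in CPEB1-KO-LPS, against 34.6%, 31.3% and 30.8% in CPEB1-KO (two-sided exact permutation p = 0.1, the smallest that 3 against 3 allows). The shares were 39.1%, 70.9% and 64.0% in WT-LPS, against 34.0%, 48.2% and 49.8% in WT (exact permutation p = 0.3). These are 2 of 32 such share comparisons over 8 pairs of genes, and the smallest adjusted p over the 32 was 0.32.

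**Figure D3:**
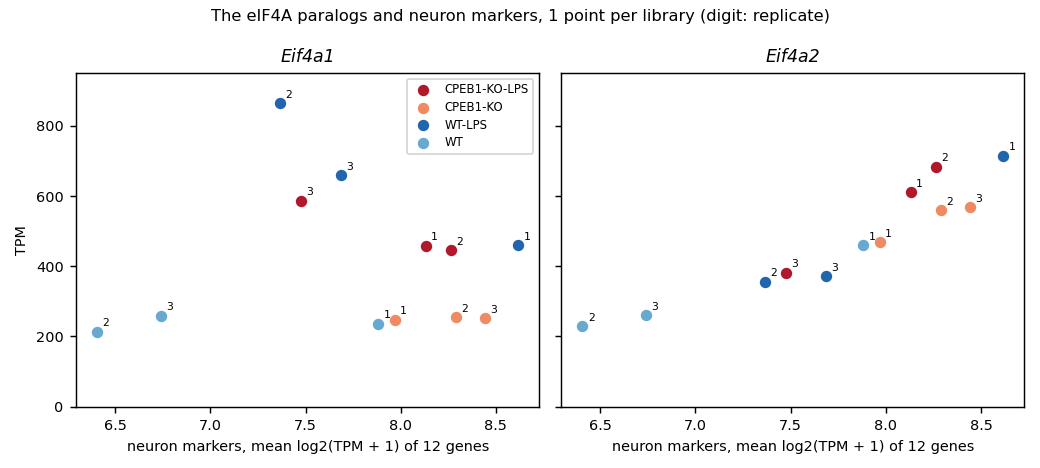
TPM of Eif4a1 (left) and Eif4a2 (right) on the y axis against the mean log2(TPM + 1) of 12 neuron markers on the x axis, 1 point per library coloured by group, with its replicate number. Eif4a2 is lowest in WT replicates 2 and 3 (229 and 261 TPM), where the neuron level is lowest, and highest in WT-LPS replicate 1 (715 TPM), while Eif4a1 has at least 446 TPM in every library after LPS and at most 259 TPM in every library without it.

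The genotype comparisons set the labelled knockouts against wild type. None of the 49 genes passed in CPEB1-KO against WT, where 0.0327% of all genes did, or in CPEB1-KO-LPS against WT-LPS, where 0.00654% did. None passed in the average genotype difference over both treatments (0.111% of all genes, 0.0196% higher and 0.0915% lower) or in the interaction, the LPS response in CPEB1-KO minus that in WT (0.00654%). At an unadjusted p under 0.05 there were 5, 2, 0 and 7 of the 49 genes in these comparisons by edgeR. Over all 15295 genes there were 2844, 1653, 1772 and 2365, so the share of the 49 was below that of all genes in each. DESeq2 called 1, 0, 0 and 1 of the 49 past FDR 0.05, and 519, 90, 108 and 301 of all genes. The median log2 fold change of the 49 was -0.14 in CPEB1-KO against WT, with 31 below 0. That direction flips with the scaling: on log2(TPM + 1) the median was 0.18 with 41 of 49 above 0, as the median of all genes moved to 0.26. It also turns with the neuron marker level as a covariate, where the median was 0.06 with 31 above 0 and 18 below, and where no initiation factor gene had an unadjusted p under 0.05, against the 5 above. Over all genes, 657 of 15295 had an unadjusted p under 0.05 by edgeR in that fit, against 2844 without the covariate. Neuron marker levels, as mean log2(TPM + 1), were 7.97 to 8.44 in CPEB1-KO and 6.41 to 7.88 in WT, without overlap. Genotype and neuron level therefore cannot be told apart in that fit of CPEB1-KO against WT.

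In CPEB1-KO against WT, CPEB1-KO-LPS against WT-LPS and the interaction, Eif4ebp3 had the fold change of largest size among the 49. It had 31.8, 19.9 and 13.9 TPM in CPEB1-KO, against 22.2, 61.1 and 123 TPM in WT, and the groups overlapped through WT replicate 1. Its log2 fold change was -1.99 ± 0.51 (unadjusted p = 0.00159, FDR 0.146 by edgeR). In CPEB1-KO-LPS it had 44.5, 31.8 and 20.4 TPM, against 14.0, 14.8 and 18.5 TPM in WT-LPS, and the groups did not overlap (1.07 ± 0.50, FDR 0.467). The interaction was 3.07 ± 0.71 (FDR 0.195 by edgeR), from a log2 LPS response of 0.56 in CPEB1-KO and -2.50 in WT. Without WT replicate 1, edgeR called both the genotype difference (FDR 0.00571) and the interaction (FDR 0.00951), and DESeq2 called both with all libraries (FDR 0.00858 and 0.0126). Both settings also called many more genes over the whole table. Without WT replicate 1, edgeR called 1292 of 15550 genes in CPEB1-KO against WT and 441 in the interaction, in place of 5 and 1. DESeq2 called 519 and 301 of 15295. The genotype difference, the interaction and WT-LPS against WT all use the same 3 WT libraries. The neuron level of WT replicate 1 was 7.88, against 6.41 and 6.74 in WT replicates 2 and 3. With the neuron marker level as a covariate, the log2 difference was -0.77 ± 0.60 in CPEB1-KO against WT (edgeR FDR 0.993) and the interaction 2.05 ± 0.70 (FDR 0.29). Neuron levels of CPEB1-KO and WT did not overlap, so genotype and neuron level cannot be told apart in that comparison. The part of neuron level in these values was not tested. The fall in WT-LPS against WT remained past the threshold in that fit (-1.69 ± 0.52, FDR 0.0294).

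Other genes with an unadjusted p under 0.05 in CPEB1-KO against WT were Eif5b, Eif3g, Eif5a2 and Eif4g3. Eif5b, which joins the ribosomal subunits, had 16.2, 18.6 and 17.0 TPM in CPEB1-KO, against 17.4, 35.0 and 30.1 TPM in WT (-1.06 ± 0.37, FDR 0.193), and passed without WT replicate 1 (FDR 0.0335). That setting called 1292 of 15550 genes. Again WT replicate 1 lay with the knockout-labelled libraries, and with the neuron covariate the difference of Eif5b was -0.14 ± 0.37 (FDR 0.996). Genotype and neuron level cannot be told apart in that fit, and the part of neuron level in the Eif5b difference was not tested. Eif2s3y had 55.8, 66.7 and 44.4 TPM in CPEB1-KO, against 72.7, 32.4 and 105.3 TPM in WT, and 131, 98.2 and 64.6 TPM in CPEB1-KO-LPS, against 52.2, 73.6 and 69.1 TPM in WT-LPS; both pairs of groups overlapped. All 12 libraries had Y-linked Ddx3y at 21.0 to 58.0 TPM and Xist, the transcript of the inactive X, at no more than 0.12 TPM, so this spread lay among libraries that all held Y-linked transcripts.

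**Figure D4:**
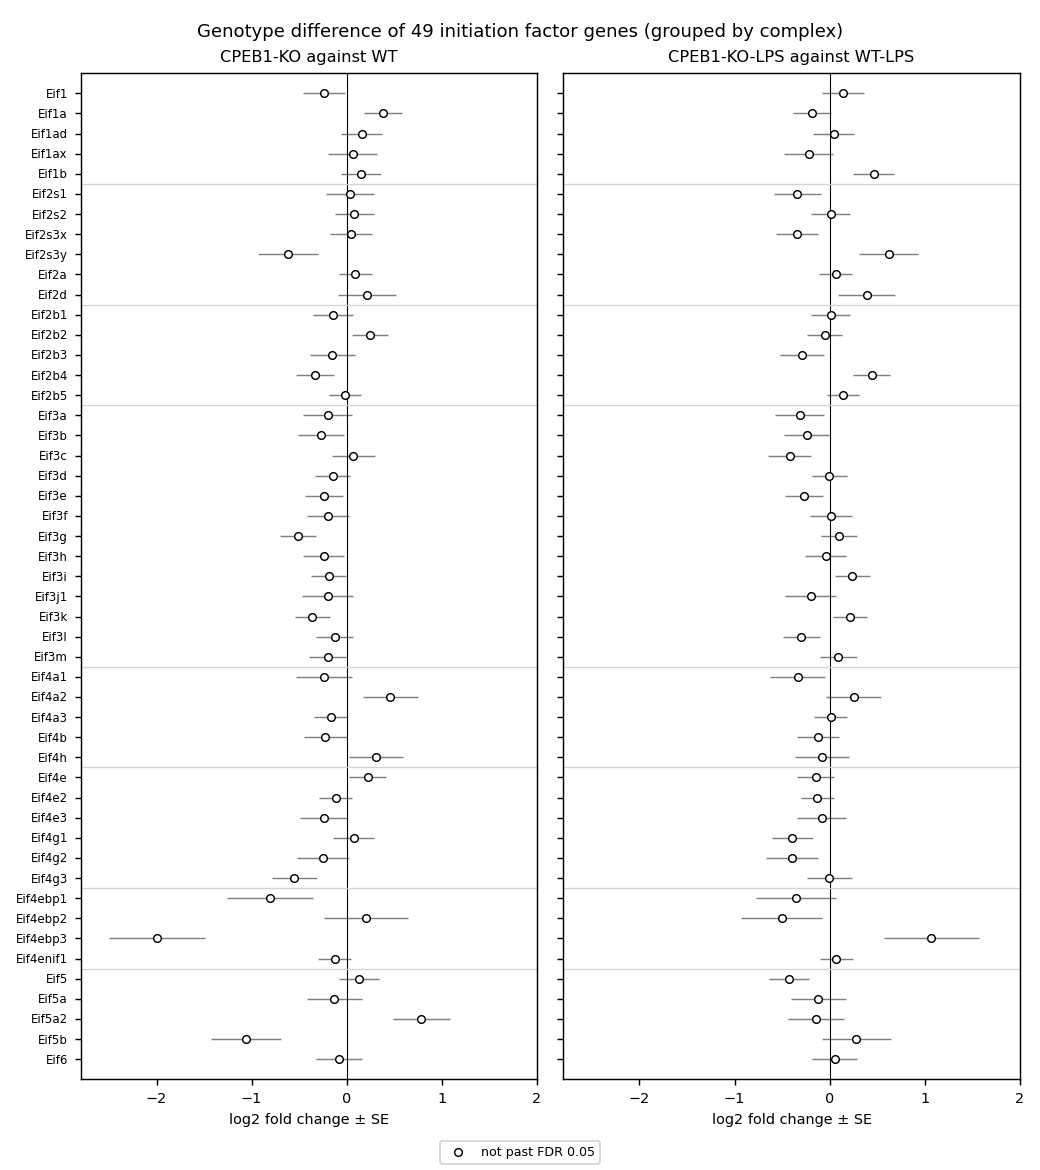
Log2 fold change (x axis, ± SE) of the 49 tested genes (rows, grouped by complex) for CPEB1-KO against WT on the left and CPEB1-KO-LPS against WT-LPS on the right. All points are open, since none passed FDR 0.05; Eif4ebp3 lies at -1.99 on the left and 1.07 on the right.

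Genes that act on the initiation factors or beside them in translation were read from 4 lists. Of 17 tested genes of the eIF2 kinases, the eIF2 phosphatase and the integrated stress response, 7 rose and 1 fell in WT-LPS against WT, with a median log2 fold change of 0.59. That is 47.1% called, 41.2% higher and 5.88% lower, against 27.4%, 12.4% and 14.9% of all genes tested. The same shares of all genes apply to the other lists in wild type. Ppp1r15b, which brings the phosphatase to eIF2, averaged 56.5 ± 16.9 TPM in WT-LPS and 13.8 ± 5.38 TPM in WT (SD, n = 3 each) (log2 1.71 ± 0.30), the stress transcription factor gene Atf3 changed by 3.36 ± 0.75, and the kinase gene Eif2ak3 (PERK) by 0.80 ± 0.20. Ddit3, which encodes CHOP, fell by 0.98 on the log2 scale. In CPEB1-KO-LPS against CPEB1-KO, Atf3 (3.34 ± 0.75) and Atf4 (0.73 ± 0.20) rose and none fell (11.8% called, against 6.22% of all genes). Of 22 genes of mTOR and MNK signalling, 4 rose and 5 fell in wild type, with a median of -0.0039 (40.9% called, 18.2% higher and 22.7% lower). Ddit4, an inhibitor of mTOR complex 1, rose by 2.11 ± 0.23, Rictor, a subunit of mTOR complex 2, rose by 1.31 ± 0.32, and Tsc2, which restrains mTOR complex 1, fell by 2.23 on the log2 scale. Ddit4 also rose in CPEB1-KO-LPS against CPEB1-KO (1.52 ± 0.23), where its relative Ddit4l fell by 1.79. Of 29 partners and inhibitors of initiation, 7 rose and 4 fell in wild type (median 0.15; 37.9% called, 24.1% higher), among them the helicase genes Ddx3x (1.24 ± 0.23) and Dhx9 (1.23 ± 0.28) and the ribosome recycling factor gene Abce1 (0.73 ± 0.18), which rose, and the nuclear cap-binding gene Ncbp2, which fell by 1.25; none passed in knockout-labelled mice. The list of elongation and termination factors was mixed. It also held the kinase gene Eef2k, the hypusine enzyme genes Dhps and Dohh, and mitochondrial factors, among them the initiation factor genes Mtif2 and Mtif3. Of its 22 genes, 1 rose and 2 fell in wild type (median -0.13, 13.6% called, under the share of all genes). The release factor gene Etf1 rose by 1.15 ± 0.25, while the mitochondrial elongation factor gene Tufm and Eef1d fell by 0.89 and 0.85. None of the 4 lists had a gene past the threshold in CPEB1-KO against WT, CPEB1-KO-LPS against WT-LPS or the interaction.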

How the data were processed

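Poly(A) RNA-seq of 12 microglia libraries was analysed in 4 groups of 3. Per the labels and the submitters' processing notes, reads were trimmed with cutadapt and quantified with RSEM on mm10; the sources used here give no versions. The authors deposited expected counts per gene, not normalised between libraries, and TPM, scaled by the authors within each library. For the tests, the deposited counts were rounded and passed to edgeR 4.0.16 (R 4.3.3): filterByExpr by group (15295 genes), TMM scaling, and a quasi-likelihood model of 4 group means over all 12 libraries (8 residual degrees of freedom). A second, additive model gave the average genotype difference. Tests were two-sided, with Benjamini-Hochberg adjustment over all genes at 0.05. Levels are TPM, with SD over 3 libraries; fold changes come from the counts, so they differ from ratios of TPM.

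The genes, the lists, the tests and the first alternatives were chosen with earlier results of these data known. Genes named with values were those past the threshold (up to 12 of smallest p per comparison), the 10 of highest level, 18 chosen by role, any untested, and up to 4 genes per list and comparison. Of the list genes, Gcn1 was absent from the tables. Alternatives were RLE size factors, DESeq2 1.42.0, other filters, limma 3.58.1 on log2(TPM + 1) and log2(TPM + 0.1), a replicate block, a neuron covariate, the compared groups only, and leaving out each library. Leaving out WT-LPS replicate 1 and WT replicate 1 together and a replicate block in the wild-type libraries only were added after seeing the data. The labels do not say what the shared replicate numbers mark. Deviations from the group means correlated at 0.36, 0.14 and 0.17 in the 3 same-number pairs of WT-LPS and WT, all above 0.1. The numbers are taken to pair these groups from these data alone. Only 5 of 18 same-number pairs over all groups were above 0.1, and no other 2 groups compared had all 3. Different-number pairs reached 0.35, and WT replicate 2 with WT-LPS replicate 3 had 0.13. Of the 12 libraries, 3 correlated best with their own number in another group. Replicate 1 of both wild-type groups also had the highest neuron level of its group, and the part of this in the 0.36 was not tested. Simulated data for WT-LPS against WT (15124 genes) gave 86% recovery of 4-fold and 16% of 2-fold changes. Only 100 genes were changed at each fold there, while 4185 genes were called in the data. The p needed to pass the FDR was therefore smaller in the simulation, and its recovery does not carry over to the data. Shared 50-base words were counted in GENCODE M21 transcripts. Each library is 1 animal, so p-values measure the spread between animals.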

Additional observations from a re-analysis of the deposited data

How the results depend on the processing

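In WT-LPS against WT, 14 initiation factor genes were called. The count was 31 by limma on log2(TPM + 1) and 31 on log2(TPM + 0.1), 4 in a fit of the 2 groups only, and 6 to 17 when single libraries were left out. Over all genes, 4185 of 15295 were called in the main fit, 4467 and 4428 by limma, and 2592 of 14657 with the 2 groups only. Leaving out single libraries gave 2714 to 4724. In CPEB1-KO-LPS against CPEB1-KO, 2 were called, against 0 with RLE size factors, 8 with DESeq2, 1 without a filter, 4 in a fit of the 2 groups only, 5 without WT-LPS replicate 1 and WT replicate 1, and 0 to 3 with single libraries left out. All genes called were 952 of 15295 in the main fit, 899 with RLE, 1655 with DESeq2 and 955 of 19249 without a filter. The fit of the 2 groups only called 1316 of 14953. Without both libraries 1287 of 15489 were called, and 355 to 1132 with single libraries left out. In CPEB1-KO against WT, none was called, against 1 with DESeq2, 3 without WT-LPS replicate 1 and WT replicate 1, and 0 to 2 with single libraries left out. All genes called were 5 of 15295, 519 with DESeq2, 2349 of 15489 without both libraries, and 2 to 1292 with single libraries left out. In the interaction, none was called, against 1 with DESeq2, 1 without both of those libraries, and 0 to 1 with single libraries left out. All genes called were 1 of 15295, 301 with DESeq2, 450 of 15489 without both libraries, and 0 to 441 with single libraries left out. Apart from the replicate block given next, other alternatives left each count of initiation factor genes within 1.5 times the main one. No called initiation factor gene changed sign in the settings run. The cause of these differences was not tested. The replicate numbers were taken to pair WT-LPS with WT, and no other groups compared, only from the correlation of same-number libraries in these data. With the replicate block in all groups, 11 genes were called in WT-LPS against WT and 0 in CPEB1-KO-LPS against CPEB1-KO, where Eif4a1 (FDR 0.0703) and Eif6 (FDR 0.0807) were lost; 0 were called in the 3 genotype comparisons and 0 in the interaction. With the block in wild type only, 19 were called in WT-LPS against WT, the 14 and 5 more, and 0 in the interaction. Beside the calls lost or gained here and in WT-LPS against WT, the block changed no other call of these genes. With 3 animals per group and 5.02 to 13.5 M counts per library, changes near 2-fold can be missed. How often they were missed in these data was not estimated.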
